A study of Mus musculus with 8 samples.

Results

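Carboxylesterases are serine hydrolases that split ester, amide and thioester bonds in drugs, in other foreign compounds and in lipids. Most of the liver enzymes sit in the lumen of the endoplasmic reticulum of hepatocytes, and some are secreted into the blood. In mice the family is split into numbered groups: Ces1 enzymes include triacylglycerol hydrolases that feed stored fat into lipoprotein particles, Ces2 enzymes are best known for drug and acylglycerol hydrolysis, and Ces3 enzymes form a smaller group. The 10 carboxylesterases described here are Ces1b, Ces1c, Ces1d, Ces1e, Ces1f, Ces1g, Ces2a, Ces2e, Ces3a and Ces3b, out of 19938 genes tested. They were taken by name, older synonyms included, from probe sets that carry a single gene symbol. The rule kept the probe set with the highest mean signal where a gene had several; each of the 10 had 1, so this choice was never needed. The family was selected on measured values, since the Ces1g difference between hydrogen water and control was already known. Tests between hydrogen water and control therefore describe these genes and are no independent evidence about them.

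RNA came from livers of C57BL6 mice after 17 h of fasting, and was measured on Affymetrix Mouse Gene 1.0 ST arrays, 1 array per sample, which read a transcript with several probes along its length. In the hydrogen water group (4 arrays) mice drank water with dissolved hydrogen for 4 weeks, starting at 7 weeks of age; the descriptions of the control group (4 arrays) name the fasting alone, and the water these mice drank is not described. The treatment protocol reads the same for both groups, so titles and descriptions set the groups. Sex is not given, and whether the samples are 8 different mice is left unsaid. The p-values set each difference against the spread between these samples, which may not be that between mice. Values are log2 signals as deposited, and array medians over 35556 probe sets lay between 5.27 and 5.37. Hepatocyte markers were bright, with 6 of 8 measured and mean log2 signals of 12.6 to 14.4.

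In the RefSeq gene table for GRCm38.p6 all 20 listed carboxylesterase genes lie on chromosome 8, in a run of 9 that holds the Ces1 genes and Ces5a and a run of 11 that holds the Ces2 and Ces3 genes and Ces4a. Within each run no other protein-coding gene or transcribed pseudogene is listed, and 68 such genes lie between the runs. The genes are close relatives, and array probes for one may also bind transcripts of another. Probe sequences were not used here, so sharing of signal between relatives was not tested.

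Promoter sequences from RefSeq (GRCm38.p6) were matched for 7 of the 10 genes. Those of 4 are shown: Ces1g and Ces2e because their hydrogen water and control arrays did not overlap, and Ces1b and Ces1c because they are the most alike and belong to genes with little difference between the groups. Each run is the 250 bases before the transcript start, 5′ to 3′ on the strand of the gene: chr8:93337210-93337459 (minus strand) for Ces1g, chr8:104926010-104926259 (plus strand) for Ces2e, chr8:93079941-93080190 (minus strand) for Ces1b, which has several starts of which one is shown, and chr8:93131284-93131533 (minus strand) for Ces1c. Capitals mark matches to CCAAT or TATAAA on either strand, where ATTGG and TTTATA are the matches on the opposite strand.
Ces1g: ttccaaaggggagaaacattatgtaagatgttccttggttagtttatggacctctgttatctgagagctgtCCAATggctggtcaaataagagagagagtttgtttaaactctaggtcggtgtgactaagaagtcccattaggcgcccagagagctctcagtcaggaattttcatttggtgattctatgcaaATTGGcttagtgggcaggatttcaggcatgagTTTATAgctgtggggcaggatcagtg
Ces2e: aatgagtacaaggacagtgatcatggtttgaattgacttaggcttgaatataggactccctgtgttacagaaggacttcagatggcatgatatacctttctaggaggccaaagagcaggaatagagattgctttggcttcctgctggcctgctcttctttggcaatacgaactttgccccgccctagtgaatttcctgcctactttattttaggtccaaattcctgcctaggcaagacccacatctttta
Ces1b: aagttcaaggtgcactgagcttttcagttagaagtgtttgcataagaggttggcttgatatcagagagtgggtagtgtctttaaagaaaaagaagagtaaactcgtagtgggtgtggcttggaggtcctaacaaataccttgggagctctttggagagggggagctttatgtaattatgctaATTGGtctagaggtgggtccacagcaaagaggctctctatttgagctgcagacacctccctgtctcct
Ces1c: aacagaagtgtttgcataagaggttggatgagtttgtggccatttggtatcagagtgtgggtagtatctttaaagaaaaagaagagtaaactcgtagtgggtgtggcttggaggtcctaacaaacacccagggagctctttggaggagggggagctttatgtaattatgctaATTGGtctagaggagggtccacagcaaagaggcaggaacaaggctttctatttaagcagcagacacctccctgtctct

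In a global alignment the Ces1b and Ces1c promoters shared 84.4% of the 250 bases. The 6 other pairs within the Ces1 or Ces2 group shared 51.6% to 60.4%, and the 14 pairs between groups 50% to 55.6%. Promoters outside the family were not aligned, so whether these shares exceed those of unrelated promoters was not tested. Of the 7 promoters 5 held CCAAT, as did 33.8% of all 32851 promoters of that length. The 7 count 1 start per gene, whereas the 32851 count every listed start. Another listed start of Ces1b held no CCAAT. The opposite-strand CCAAT lay 64 to 68 bases before the start in Ces1b, 74 to 78 in Ces1c and 54 to 58 in Ces1g, whereas Ces2e had no match. TATAAA was found in 2 of the 7, Ces1g and Ces3b, against 12.4% of all promoters. The half-site of nuclear receptors, AGGTCA, was found in 1 (Ces2a), against 14.0% of all promoters, next to a CCAAT match with no shared base. The core of the antioxidant response element, TGACNNNGC, was found in 0 of the 7, against 10.2% of all promoters. Both strands were searched for each motif; TGACNNNGC can overlap TGACCT, which is AGGTCA read on the opposite strand. These are matches of letters in a short window.

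The comparison of hydrogen water with control asks which transcripts differ between the fasted livers labelled with hydrogen water and those labelled as controls. Of the 10 carboxylesterases 9 had a lower mean with hydrogen water and 1 a higher mean, with a median log2 difference of −0.18, against −0.00 over all genes, of which 51.3% were lower. None of the 10 passed limma's test over all genes with Benjamini-Hochberg adjustment, where the threshold was 0.05; the lowest adjusted p among them was 0.617 (Ces1g), and 0% of all genes passed. At an unadjusted p under 0.05 there were 2, both lower (Ces1g and Ces2e), where 3.57% of all genes were lower, 3.6% higher and 7.17% passed in either direction. The 4 hydrogen water arrays lay wholly below the 4 control arrays in the same 2 genes, against 2.01% of all genes in that direction and 3.76% in either. The median over the 10 was −0.09 without hydrogen water 4, and the count at an unadjusted p under 0.05 was 1 without control 1 or without control 4, where Ces2e no longer passed. Over all 19938 genes the count at that p was 1223 without control 1 and 1439 without control 4.

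**Figure D1:**
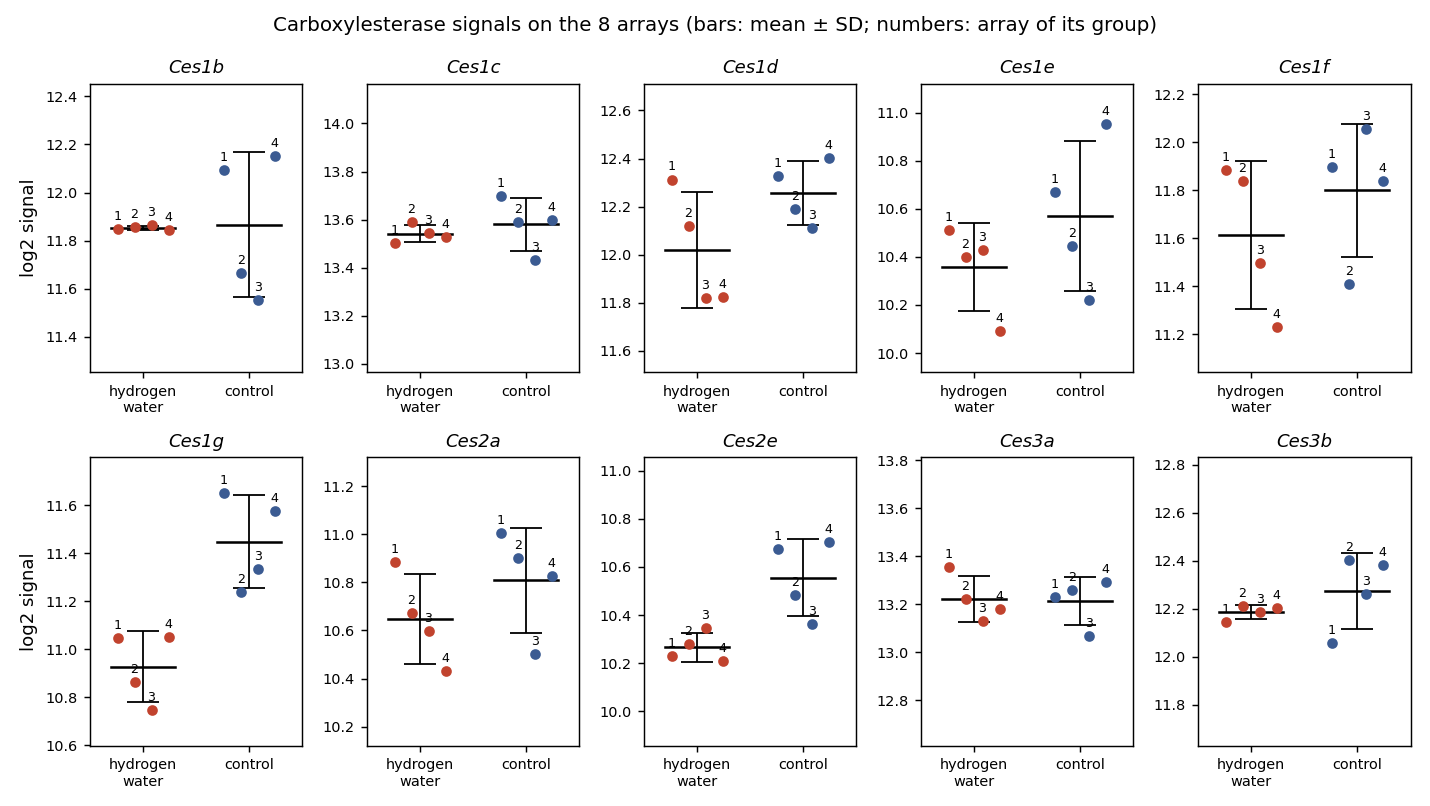
Log2 signal (vertical axis, same span in every panel) of the 10 carboxylesterases on each of the 4 hydrogen water arrays (red, left) and 4 control arrays (blue, right); lines are group means and bars the SD. The groups do not overlap for Ces1g and Ces2e, and the 4 hydrogen water values of Ces1b lie within 0.02 of each other.

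Ces1g (transcript cluster 10580678), a liver esterase whose loss in mice raises liver fat and blood lipids, had log2 signals of 11.05, 10.86, 10.75 and 11.05 on hydrogen water arrays 1 to 4, against 11.65, 11.24, 11.33 and 11.58 on control arrays 1 to 4. Every hydrogen water array lay below every control array, with a gap of 0.18 between the nearest values. The means were 10.93 ± 0.15 with hydrogen water and 11.45 ± 0.19 in controls (SD, n = 4 each), a log2 difference of −0.52 (SE 0.12, 95% interval −0.79 to −0.25), or −30.3% on the linear scale. Its unadjusted p was the 36th smallest of 19938 genes, and limma's adjusted p over all genes was 0.617. With any 1 array left out the difference lay between −0.59 and −0.45.

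Ces1d (transcript cluster 10580635), the triacylglycerol hydrolase that mobilises stored fat for very low density lipoprotein, had 12.31, 12.12, 11.82 and 11.82 with hydrogen water, against 12.33, 12.19, 12.11 and 12.40 in controls. Hydrogen water arrays 3 and 4 lay below every control, whereas arrays 1 and 2 lay among the controls. The difference was −0.24 (SE 0.13, 95% interval −0.52 to 0.05). Ces1f (10580663), a second triacylglycerol hydrolase, had 11.88, 11.84, 11.50 and 11.23 with hydrogen water, against 11.90, 11.41, 12.06 and 11.84 in controls. Hydrogen water 4 was its lowest array, and the groups overlapped. Its difference was −0.19 (SE 0.17), and −0.06 without hydrogen water 4.

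Ces1e (10580649), also known as egasyn, holds beta-glucuronidase in the endoplasmic reticulum. It had 10.51, 10.40, 10.43 and 10.09 with hydrogen water, against 10.67, 10.45, 10.22 and 10.95 in controls. Hydrogen water 4 and control 4 were the extremes, and the other arrays overlapped. The difference was −0.21 (SE 0.16), and −0.09 without control 4.

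Ces1c (10580624), a major esterase of mouse plasma, had 13.50, 13.59, 13.55 and 13.53 with hydrogen water, against 13.70, 13.59, 13.43 and 13.60 in controls. All 4 hydrogen water arrays lay inside the range of the controls. The difference was −0.04 (SE 0.10, 95% interval −0.25 to 0.17). Ces1b (10580622), whose promoter is closest to that of Ces1c, had 11.85, 11.86, 11.86 and 11.84 with hydrogen water, against 12.09, 11.66, 11.55 and 12.15 in controls. The hydrogen water arrays again lay inside the range of the controls, which formed a higher pair (1 and 4) and a lower pair (2 and 3). The difference was −0.01 (SE 0.14, 95% interval −0.31 to 0.29), and its sign turned with quantile normalization.

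Among the 6 Ces1 genes all had a lower mean with hydrogen water, with a median difference of −0.20 and a range of −0.52 to −0.01. The mean of the 6, with each gene centred on its own mean over the 8 arrays, was 0.03, −0.04, −0.17 and −0.23 on hydrogen water arrays 1 to 4, against 0.24, −0.06, −0.04 and 0.27 on control arrays 1 to 4. Controls 2 and 3 therefore lay among the hydrogen water arrays. Without hydrogen water 4 the median of the 6 was −0.09.

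Ces2e (10574545) had 10.23, 10.28, 10.34 and 10.21 with hydrogen water, against 10.67, 10.48, 10.36 and 10.70 in controls. The groups did not overlap, but only 0.02 separated hydrogen water 3 from control 3. The means were 10.27 ± 0.06 with hydrogen water and 10.56 ± 0.16 in controls (SD, n = 4 each), a difference of −0.29 (SE 0.11, 95% interval −0.52 to −0.06) with a limma adjusted p of 0.656. Ces2a (10574498), a hydrolase of acylglycerols, had 10.89, 10.67, 10.60 and 10.43 with hydrogen water, against 11.01, 10.90, 10.50 and 10.83 in controls. Its groups overlapped, with control 3 below 3 of the hydrogen water arrays. The difference was −0.16 (SE 0.13), and −0.09 without hydrogen water 4.

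Ces3a (10574598) had 13.35, 13.22, 13.13 and 13.18 with hydrogen water, against 13.23, 13.26, 13.07 and 13.29 in controls. It was the only one of the 10 with a higher mean with hydrogen water, by 0.01 (SE 0.10, 95% interval −0.21 to 0.23), and the sign turned when each array was centred on its median. Ces3b (10574607), its neighbour, had 12.15, 12.21, 12.19 and 12.20 with hydrogen water, against 12.06, 12.40, 12.26 and 12.38 in controls. The hydrogen water arrays lay inside the range of the controls, and the difference was −0.09 (SE 0.10, 95% interval −0.31 to 0.14). Beside the Ces1 median of −0.20, the medians were −0.23 over the 2 Ces2 genes and −0.04 over the 2 Ces3 genes. With 1 array left out the Ces3 median ran from −0.07 (without control 1) to −0.0081 (without control 4), and Ces3b from −0.16 (without control 1) to −0.05 (without control 2). Differences between the groups of genes were not tested.

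The 10 genes were all above the median level of the genes tested (5.87). Mean log2 signals over the 8 arrays ran from 10.5 to 13.6 in Ces1, from 10.4 to 10.7 in Ces2 and from 12.2 to 13.2 in Ces3. Each probe set binds with its own strength, so these levels give no order of transcript amounts between the genes or the groups.

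**Figure D2:**
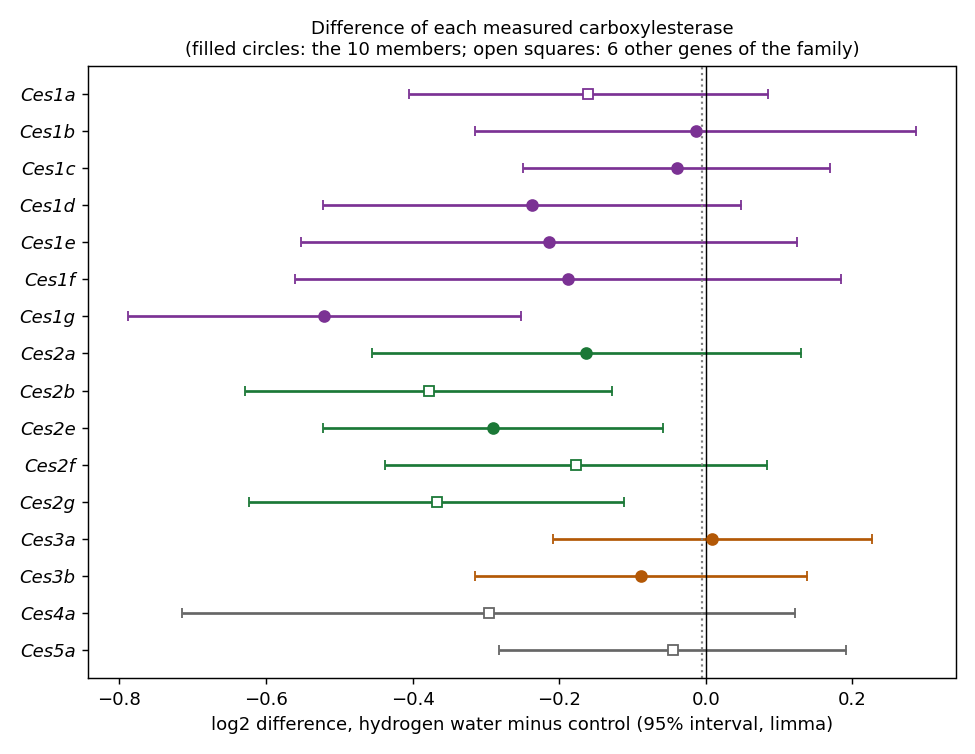
Log2 difference, hydrogen water minus control, with its 95% interval from limma (horizontal axis) for the 16 measured carboxylesterases, coloured by group; filled circles are the 10 genes described above, open squares 6 relatives, and the dotted line is the median over all genes. Intervals leave out 0 for Ces1g, Ces2b, Ces2e and Ces2g, before any adjustment for the number of genes.

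Of the other carboxylesterases 6 had a probe set naming them alone, and Ces1h, Ces2c, Ces2d-ps and Ces2h are not analysed here. All 6 had a lower mean with hydrogen water, with a median of −0.24, and 0 passed limma's adjusted threshold. Ces2g had 8.54, 8.48, 8.78 and 8.59 with hydrogen water, against 9.18, 8.89, 8.76 and 9.04 in controls. Hydrogen water 3 and control 3 overlapped by 0.02. The difference was −0.37 (SE 0.12, limma adjusted p = 0.638). Ces2b had 4.43, 4.41, 4.32 and 4.36 with hydrogen water, against 4.57, 5.05, 4.72 and 4.69 in controls. Its groups did not overlap, as in 2.01% of all genes in that direction, at a signal below the median level of the genes tested. The difference was −0.38 (SE 0.11, limma adjusted p = 0.636). Ces2f and Ces1a, also below that level, differed by −0.18 (SE 0.12) and −0.16 (SE 0.11), with Ces1a at −0.06 without hydrogen water 1. Ces4a differed by −0.30 (SE 0.19), but by −0.12 without control 2. Ces5a, known as cauxin, a urinary protein of cats, was also below the median level and differed by −0.04 (SE 0.11). With its 2 probe sets averaged the difference was −0.02.

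Over all 5 measured Ces2 genes the means were lower with hydrogen water in 5, and 3 had an unadjusted p under 0.05 (Ces2b, Ces2e and Ces2g), where 51.3% of all genes were lower and 3.57% were lower at that p. The same counts were 7 and 1 of the 7 measured Ces1 genes, and 1 and 0 of the 2 Ces3 genes. The centred mean of the 5 Ces2 genes was −0.12, −0.11, −0.09 and −0.23 on hydrogen water arrays 1 to 4, against 0.16, 0.17, 0.01 and 0.20 on control arrays 1 to 4. No hydrogen water array reached the lowest control, which was control 3. For Ces2a and Ces2e alone these means overlapped, with control 3 (−0.14) below hydrogen water arrays 1 to 3 (−0.01, −0.09 and −0.10). Over all 16 carboxylesterases 15 means were lower, with a median difference of −0.18, and 4 had an unadjusted p under 0.05, all lower, beside the same shares of all genes (51.3% and 3.57%).

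**Figure D3:**
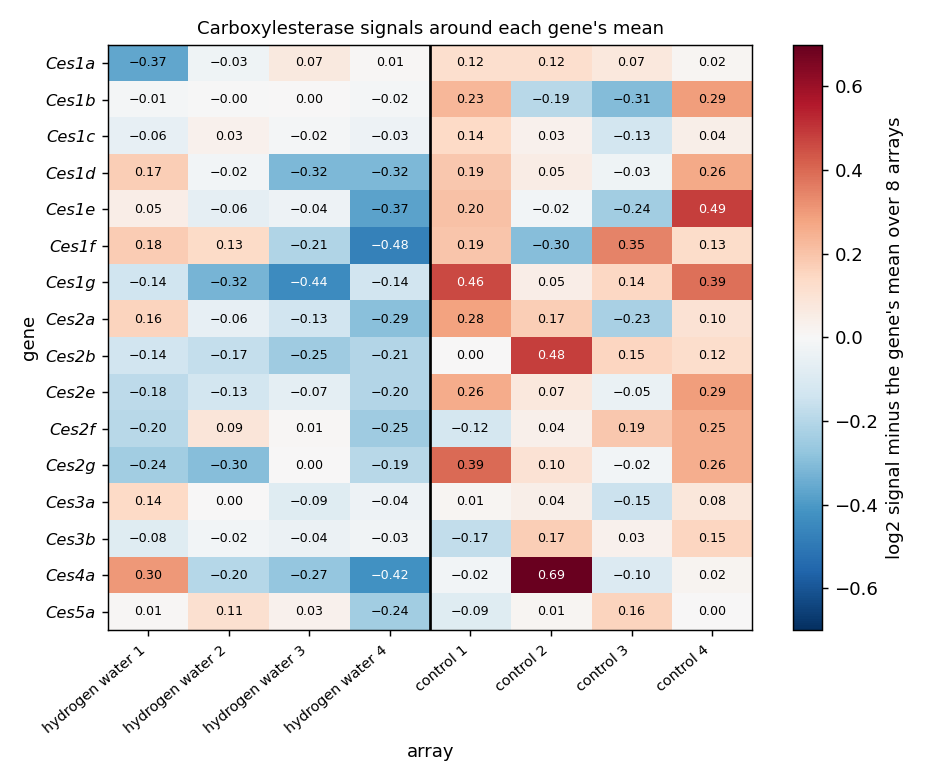
Log2 signal minus the mean of each gene over the 8 arrays (colour and printed value) for the 16 measured carboxylesterases (rows) on 4 hydrogen water arrays (left of the line) and 4 control arrays (right). Hydrogen water 4 was the lowest array for 7 of the 16 genes, and hydrogen water 3 and control 3 were each the lowest for 3. Control 4 was the highest for 5, and controls 1 and 2 were each the highest for 4.

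The arrays did not carry the difference evenly. Hydrogen water 4 was the lowest array for 4 of the 10 genes (Ces1e, Ces1f, Ces2a and Ces2e), and control 3 was the lowest for 3 (Ces1b, Ces1c and Ces3a). Control 4 was the highest for 4 of the 10 and control 1 for 3. How often each array was lowest or highest over all genes was not counted. In limma's array weights over all genes, control 3 (0.42) and hydrogen water 4 (0.73) were the lowest. In 8 of the 10 genes the SD was smaller with hydrogen water, against 52.7% of all genes. Of the lists described below, the same held for 24 of 29 other hydrolases, 12 of 18 lipoprotein assembly genes and 10 of 18 regulators. The range of Ces1b was 0.02 over the hydrogen water arrays and 0.60 over the control arrays, and that of Ces3b was 0.06 and 0.34. Ces1d and Ces1f had the larger SD with hydrogen water.

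**Figure D4:**
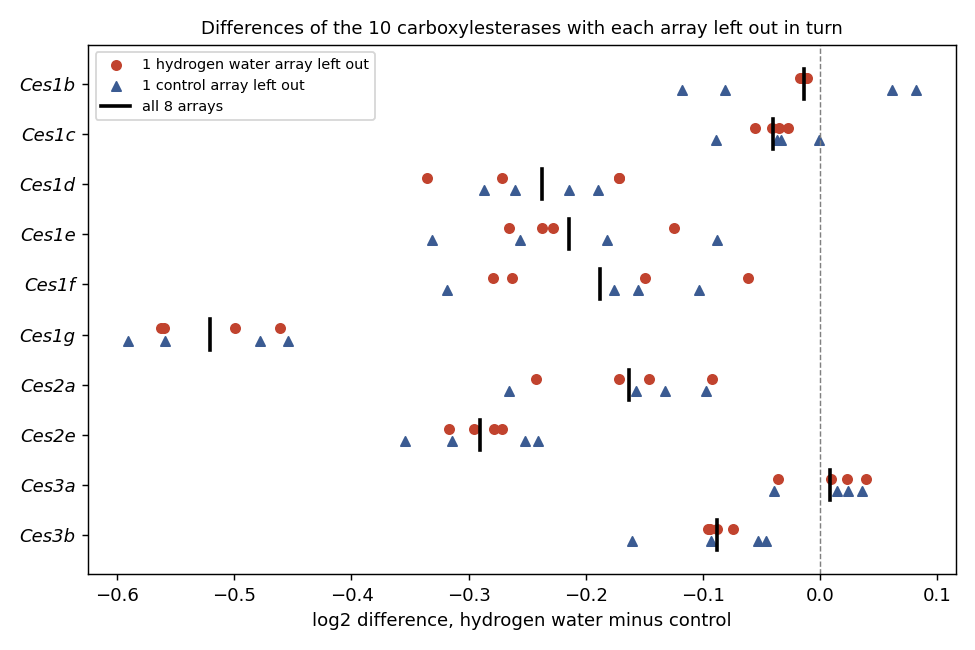
Log2 difference, hydrogen water minus control (horizontal axis), of the 10 carboxylesterases with all 8 arrays (black bar), with 1 hydrogen water array left out (red circles) and with 1 control array left out (blue triangles). Ces1g stays between −0.59 and −0.45 and Ces2e between −0.35 and −0.24, whereas Ces1b and Ces3a have values on both sides of 0.

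Markers of other liver cells differed between the groups in 1 direction, with 3 of 10 and 3 of 8 higher at an unadjusted p under 0.05, as were 3.6% of all genes, and none past limma's adjusted threshold. Kupffer cell markers had a higher mean with hydrogen water in 10 of 10, with array means around each gene's mean of −0.15 to 0.57 with hydrogen water and −0.44 to 0.16 in controls. Sinusoidal endothelial markers did so in 8 of 8, with array means of −0.17 to 0.42 with hydrogen water and −0.45 to 0.09 in controls. Hydrogen water 4, the lowest array for several carboxylesterases, was the highest for Kupffer cell markers. The part of these cells in the carboxylesterase differences was not tested. Hepatocyte markers ran from −0.02 to 0.12 with hydrogen water and from −0.04 to −0.00 in controls, with differences of −0.04 to 0.13. Hydrogen water 4, at 0.12, was the highest array for hepatocyte markers as well. In whole liver, fewer cells of a type and less RNA per cell cannot be told apart.

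Markers of other tissues that express carboxylesterases were set beside these values. The adipocyte hormones Adipoq and Lep stood at mean log2 signals of 3.41 and 4.37, and the 6 measured adipocyte markers ran from −0.13 to 0.09 with hydrogen water and from −0.37 to 0.30 in controls. Of these 6, 2 were above the median level of the genes tested, Fabp4 at 7.14 and Cidec, also a lipid droplet gene of fasted hepatocytes, at 10.2. Cidec differed by 0.69 (SE 0.34), with its groups overlapping. This difference leaned on control 1, where Cidec stood at 8.60, whereas its next lowest array, control 4, stood at 10.11. Control 1 also gave the adipocyte marker minimum of −0.37. The Cidec difference without that array was not computed. Plin1, a dim adipocyte lipid droplet gene, differed by −0.28 (SE 0.11) with no overlap between the groups. The part of adipocytes in the carboxylesterase differences was not tested. Of 7 intestinal markers 2 were above the median level of the genes tested (Fabp2, at 11.9, and Cdx1), and the intestinal enzymes Sis and Lct stood at 3.10 and 4.93. The array means of these 7 ran from −0.15 to 0.10 with hydrogen water and from −0.07 to 0.06 in controls. Of 6 pancreatic acinar markers 4 were measured, all below the median level, with −0.13 to 0.04 with hydrogen water and −0.11 to 0.14 in controls.

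Other hydrolases of esters and lipids lay on both sides of 0. Of 30 listed, 29 were measured, 12 with a lower and 17 with a higher mean with hydrogen water, with a median difference of 0.01. None passed limma's adjusted threshold, and at an unadjusted p under 0.05 there were 0 lower and 2 higher of the 29, where 7.17% of all genes passed in either direction. Pnpla2, the adipose triglyceride lipase that starts lipid droplet breakdown, had 11.21, 11.15, 11.29 and 11.49 with hydrogen water, against 10.41, 10.93, 11.06 and 11.01 in controls. Its groups did not overlap, as in 1.76% of all genes in that direction, and the difference was 0.43 (SE 0.15, limma adjusted p = 0.640). Without control 1, its lowest array, it was 0.28. The hydrolase Abhd2 differed by 0.51 (SE 0.23), and by 0.29 without control 3. Lipe, the hormone-sensitive lipase, differed by 0.24 (SE 0.12), and by 0.16 without hydrogen water 3. On the low side, Aadac, an arylacetamide deacetylase of the same compartment, had 12.70, 12.81, 12.59 and 12.32 with hydrogen water, against 12.88, 12.79, 12.86 and 12.82 in controls. Hydrogen water 4 was its lowest array; the difference was −0.23 (SE 0.12), and −0.13 without that array. Lipoprotein lipase, Lpl, differed by −0.45 (SE 0.21), and by −0.25 without control 2. The lysosomal acid lipase Lipa differed by −0.24 (SE 0.12).

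Of 19 listed transcription factors and partners that act on carboxylesterase or liver drug metabolism genes, 18 were measured, with a median difference of 0.05 and 0 past limma's adjusted threshold. At an unadjusted p under 0.05 there were 2 higher and 1 lower of the 18, where 3.6% of all genes were higher and 3.57% lower. Ppara, the fatty acid receptor of the fasting response, differed by 0.33 (SE 0.13), and by 0.20 without hydrogen water 4. Its groups did not overlap, as in 1.76% of all genes in that direction. Rxra, the partner of Ppara, differed by 0.36 (SE 0.16), and by 0.22 without control 3. Nr1i3 (CAR) and Nr1i2 (PXR), receptors for foreign compounds, differed by 0.34 (SE 0.22) and 0.11 (SE 0.15). With 1 array left out Nr1i3 ran from 0.17 (without hydrogen water 4) to 0.57 (without hydrogen water 2), and Nr1i2 was 0.0007 without hydrogen water 4. Nr0b2, a corepressor in bile acid signalling, had 8.44, 9.001, 7.10 and 9.48 with hydrogen water, against 9.59, 10.47, 9.45 and 9.33 in controls. Hydrogen water 3 was the lowest array, and the groups overlapped; the difference was −1.20 (SE 0.42), and −0.73 without that array. Foxa2 and Srebf1 differed by −0.29 (SE 0.18) and −0.27 (SE 0.18). With 1 array left out Foxa2 ran from −0.46 (without control 2) to −0.14 (without control 4), and Srebf1 from −0.41 (without hydrogen water 3) to −0.14 (without hydrogen water 2). Hnf4a, the hepatocyte nuclear factor, differed by 0.13 (SE 0.13), and by 0.02 without hydrogen water 4. Nfe2l2, which encodes NRF2, differed by −0.03 (SE 0.16), with a sign that turned under array weights.

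Of 19 listed genes of lipoprotein assembly and lipid droplets, the pathway that Ces1d and Ces1g act in, 18 were measured, with a median difference of −0.06 and 0 past limma's adjusted threshold. At an unadjusted p under 0.05 there were 1 higher and 2 lower of the 18, where 3.6% of all genes were higher and 3.57% lower. Apob, the structural protein of the particle, stood at 13.52 ± 0.01 with hydrogen water and 13.52 ± 0.02 in controls (SD, n = 4 each), a difference of −0.01 (95% interval −0.20 to 0.18). Mttp, which loads lipid onto it, differed by −0.09 (SE 0.10). Tmem41b, a lipid scramblase of the endoplasmic reticulum, differed by −0.39 (SE 0.14), and by −0.22 with its 2 probe sets averaged, where its unadjusted p was 0.117. Pla2g12b differed by −0.34 (SE 0.13) and the vesicle coat GTPase Sar1b by −0.21 (SE 0.13). The lipid droplet coat genes Plin2 and Plin5 differed by 0.30 (SE 0.14) and 0.24 (SE 0.17), with Plin5 at 0.10 without control 1. The coat subunit Sec23a differed by 0.11 (SE 0.14), and by 0.04 without hydrogen water 4.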

How the data were processed

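The deposited table holds log2 signals of every probe set on each array. The submitters' processing notes name Affymetrix Expression Console; how it corrected background, normalized and summarised probes, its version and any genome build are not given in the sources used. The log2 scale was inferred from the range of the values (1.40 to 14.8). Arrays have no read depth; their number limits the precision. Of 35556 probe sets, 21789 had 1 symbol, 1621 several and 12146 none; symbols were updated by Entrez identifier through RefSeq (GRCm38.p6), which matched 19856 of 19938 genes. All 19938 genes, with no filter on level, were fitted for hydrogen water minus control with limma's lmFit and eBayes (version 3.58.1, R 4.3.3; two-sided, Benjamini-Hochberg). The fit was tested on simulated data. Gaps, counts and figures came from Python 3.11.15 and matplotlib 3.10.9.

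The members and gene lists were chosen with earlier results of these data known. Named genes were the 10 members, their measured relatives, for each of 3 lists, the 3 higher and the 3 lower genes of lowest unadjusted p (hydrolases, regulators, lipoprotein assembly) and 8 genes whatever their values, 39 in all. Marker lists were hepatocyte, adipocyte, Kupffer, endothelial, acinar and intestinal. Lists were described by counts and medians, with no list test. Alternatives were array weights, a block for the replicate number, median centring or quantile normalization, a trended, robust variance, dim probe sets left out, means over a gene's probe sets, those with several symbols kept, and each array left out in turn; leaving out control 3 and hydrogen water 4 together was chosen after seeing the data.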

Additional observations from a re-analysis of the deposited data

Results flagged for a closer look

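Over the 39 named genes, 78 groups of 4 arrays were searched for an array far from the other 3 by Dixon's 95% criterion, which chance meets in about 5% of groups; 2 met it. Ces4a had 6.96 on control 2, against 6.17 to 6.29 on the other controls. Sec23a had 11.59 on control 3, against 11.10 to 11.18 on the other controls.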

How the results depend on the processing

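Over the 39 named genes and 17 alternatives, 639 of 659 recomputed differences kept their sign, and 0 passed the adjusted threshold. Ces1g and Ces2e kept theirs in every one, with −0.60 to −0.45 for Ces1g and −0.35 to −0.24 for Ces2e. The 20 reversals lay in 7 genes. Ces1b was 0.0216 with quantile normalization and −0.118 to 0.0823 with 1 array left out. Ces3a was −0.0009 with median centring, −0.0254 with array weights and −0.039 to 0.0391 with 1 array left out. Ces5a ran from −0.0897 to 0.0285 and Nfe2l2 from −0.174 to 0.0618 with 1 array left out, and with array weights Nfe2l2 was 0.0104 and Nr1i2 −0.0117. With control 3 and hydrogen water 4 both left out, Ces1f was 0.0244, Ces3a −0.0248, Ces5a 0.0738, Nr1i2 −0.106 and Hnf4a −0.0033. The cause of these reversals was not tested.

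The count of all genes past the adjusted threshold was 0 in the other settings, ran from 0 to 1 with 1 array left out (Sucnr1 without control 2, Aqp8 without control 3) and was 3 with both arrays left out (Aqp8, Mir297b and Usp17ld); these were named after their values were seen. The filter on dim probe sets, which tests only the 9969 genes above the median level, gave 786 of them at an unadjusted p under 0.05. Without the filter it was 1429 of 19938. Carboxylesterases at an unadjusted p under 0.05 ran from 1 to 3 of the 10 and from 3 to 6 of the 16 with 1 array left out, and stood at 2 and 4 with both left out. Over all 19938 genes that count ran from 958 to 1838 with 1 array left out and was 1506 with both left out. Deviations from the group means were correlated at −0.16 to 0.06 between same-numbered arrays and at −0.17 to 0.18 between different-numbered arrays. Whether the arrays were paired in the experiment cannot be told from these correlations. With the replicate number as a block, 1313 genes and 2 of the 10 had an unadjusted p under 0.05, and none passed the adjusted threshold.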
